A study of Mus musculus with 27 samples.

Results

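The integrated stress response genes driven by the transcription factor ATF4 are represented here by 10 genes listed by symbol: Atf4, Ddit3, Atf3, Atf5, Trib3, Chac1, Asns, Phgdh, Psat1 and Shmt2. All 10 were found by their Ensembl identifiers among the 48440 genes of the count table, and all 10 were among the 18684 genes that passed the filter on low counts. The list applies no threshold on measured values, but it was drawn up with earlier results of these data known.

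In the integrated stress response, kinases that sense amino acid shortage, unfolded protein, haem deficiency or viral RNA phosphorylate the translation initiation factor eIF2. Bulk protein synthesis then slows, while the messenger RNA of ATF4 is translated more, so much of ATF4 control lies beyond the reach of an RNA measurement of Atf4 itself. ATF4, often paired with a C/EBP partner, raises genes for amino acid synthesis and import and for tRNA charging, and the factors CHOP (encoded by Ddit3), ATF3 and ATF5, with TRIB3 as a feedback inhibitor. In fibroblasts the serine synthesis branch of this response also feeds the glycine demand of collagen production.

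RNA of lung fibroblasts taken from wild-type C57BL/6 mice was sequenced in 27 libraries, 3 in each of 9 groups. KU60019, which blocks ATM, a kinase that signals DNA breaks, was given at 3 uM for 15 or 35 d, and control cells received the solvent DMSO, which gave the groups KU60019 15 d, DMSO 15 d, KU60019 35 d and DMSO 35 d. A further 4 groups had the same treatments and were harvested 20 d after removal of the inhibitor or of DMSO. The 9th group was exposed to 10 Gy of X-rays and harvested 10 d later, as a positive control for senescence per the series design. It had no unirradiated group of the same age and was compared with DMSO 15 d. Libraries are named as in the labels, from S1_705, S2_715 and S3_716 (DMSO 15 d) to S25_705, S26_715 and S27_716 (irradiated), and values below are in that order within a group. Whether the last number in each name stands for an animal is not stated, and if it does not, the tests may not measure spread between animals.

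Library totals ran from 20659745 to 50859493 counts, with a median of 31265114. Levels are CPM, counts scaled by library size and TMM factor, and a gene rose or fell where edgeR's quasi-likelihood test gave a Benjamini-Hochberg adjusted p under 0.05 over the 18684 genes. Log2 fold changes carry ± SE, and group levels are means ± SD with n = 3. The fibroblast markers were present in every library, Col1a1 at 1060 to 14100 CPM and Pdgfra at 131 to 985 CPM. The leukocyte gene Ptprc was at 0 in 14 libraries and the epithelial gene Epcam at 0 in 16, with highest levels of 0.221 and 0.133 CPM. Other markers were present: the macrophage gene Csf1r was at 2.18 to 6.02 CPM. The endothelial genes Pecam1 and Cdh5 reached 19.9 and 25.5 CPM, and the Schwann cell gene Sox10 reached 15.2 CPM. Summed over their lists, macrophage markers reached 98.7 CPM (KU60019 35 d removed) and epithelial markers 71.6 CPM (DMSO 35 d removed). Ribosomal RNA exceeded 0.4% of counts in 4 libraries: S7_705 (DMSO 15 d removed), S19_705 and S20_715 (DMSO 35 d removed) and S27_716 (irradiated).

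The ATF4 site was looked for in the promoters, because ATF4 and C/EBP factors bind a composite element whose core is TGATGNAA. In windows from 250 bases before to 50 bases after a RefSeq start (GRCm38.p6, both strands), that core was present in 4 of the 12 windows of the 10 genes (33.3%) and in 3.97% of all 32851 windows. The stretches of these 4 genes are shown because they hold the match, on the strand of the gene, with the core in capitals.
Asns: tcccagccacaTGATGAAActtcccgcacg
Atf3: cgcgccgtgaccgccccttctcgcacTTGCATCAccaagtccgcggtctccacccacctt
Chac1: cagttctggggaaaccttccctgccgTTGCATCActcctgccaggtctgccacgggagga
Trib3: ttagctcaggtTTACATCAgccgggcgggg
The Asns stretch lies at chr6:7693214-7693243 (minus strand) and its core starts 23 bases before the start site. That of Atf3 lies at chr1:191183410-191183469 (minus strand), 110 bases before, and that of Chac1 at chr2:119351023-119351082 (plus strand), 193 bases before. The Trib3 stretch, at chr2:152344028-152344057 (minus strand), holds the core 14 bases after the start. In Asns the core reads along the gene, and in the other 3 genes it reads on the opposite strand, as TGATGCAA in Atf3 and Chac1 and TGATGTAA in Trib3.

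The core was also found in the windows of 5 of 9 tRNA charging genes (55.6%) and 7 of 17 other ATF4 targets (41.2%) with a window, and of 4.51% of all 27025 genes with one. It was in those of 2 of 7 amino acid transporter genes, 0 of 7 further serine and one-carbon genes and 0 of 12 genes of eIF2 kinases, eIF2B and phosphatases. The cyclic AMP response element TGACGTCA was in 0 of the 12 windows and in 1.79% of all. The endoplasmic reticulum stress element, which serves the ATF6 and XBP1 arms of the unfolded protein response, was in no window of the 10 genes, in those of 6 of 14 genes of these arms (42.9%) and in 0.137% of all genes. These matches are letters in a window and not measured binding.

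Per transcript length, Atf4 and Atf5 were the most abundant of the 10 genes in DMSO 15 d, both with a mean of 311 TPM, and Ddit3 followed at 113 ± 31.6 TPM. Asns (62.9 ± 12.7 TPM), Shmt2 (46.5 ± 9.83), Psat1 (39.4 ± 19.1), Phgdh (32.8 ± 9.40) and Trib3 (24.2 ± 3.84) came next, neighbours whose ranges of 1 SD overlap. Chac1 stood at 8.44 ± 2.87 TPM and Atf3 at 2.55 ± 0.784 TPM. On the CPM scale the group means of Atf4 spanned only 1.87-fold over the 9 groups, those of Ddit3 6.06-fold, Chac1 6.08-fold, Shmt2 5.93-fold, Phgdh 7.06-fold and Atf3 21-fold. The highest CPM mean was that of KU60019 35 d removed for Ddit3 and Chac1 and of DMSO 35 d removed for Phgdh and Shmt2, with no overlap with the next group. It was that of KU60019 35 d removed also for Atf3, Trib3 and Asns and of DMSO 35 d removed for Psat1, but there the libraries overlapped with those of the next group. For Chac1, S10_705 of KU60019 15 d removed, at 45.1 CPM, lay within the 36.0 to 51.5 CPM of KU60019 35 d removed. On TPM the highest mean was in the irradiated group for Asns (159 ± 16.2 against 145 ± 28.4 TPM) and in KU60019 15 d for Psat1 (122 ± 9.06 against 113 ± 59.1 TPM). On that scale the Phgdh libraries of DMSO 35 d removed (113, 136 and 138 TPM) overlapped with those of KU60019 15 d (92.2, 117 and 122 TPM).

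**Figure D1:**
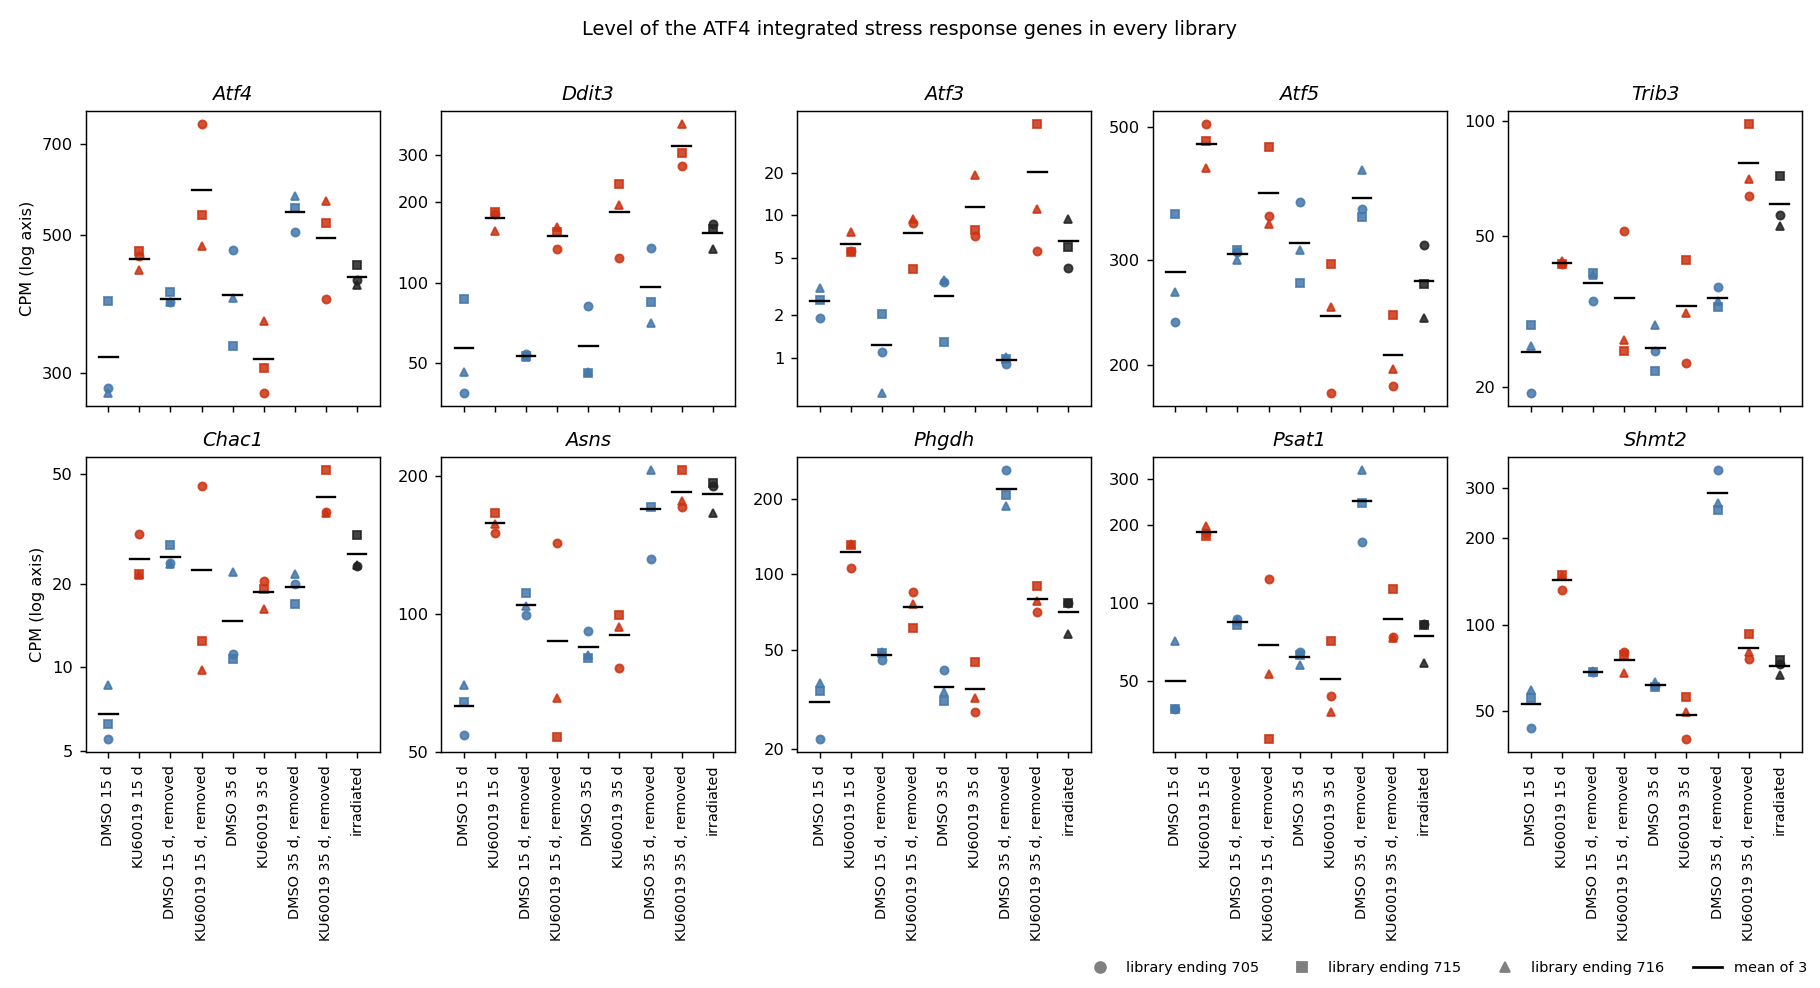
CPM of each of the 10 genes (log axes) in every library of the 9 groups, DMSO in blue, KU60019 in red and irradiated in black, with the group mean as a bar. Ddit3 is higher in each KU60019 group than in its DMSO group, while Phgdh, Psat1 and Shmt2 have their 2 highest means in KU60019 15 d and DMSO 35 d removed.

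After 15 d of KU60019, 9 of the 10 genes rose against DMSO 15 d and none fell. Over all tested genes 13.2% rose and 30.3% changed in either direction. The steepest rises were those of the serine synthesis genes Phgdh and Psat1 and of Chac1, between 1.85 and 1.99 on the log2 scale. DMSO 15 d had the lowest mean CPM of the 9 groups for Trib3, Chac1, Asns, Phgdh and Psat1. The mean of Chac1 was 24.6 CPM in KU60019 15 d, 14.7 CPM in DMSO 35 d and 25.1 CPM in DMSO 15 d removed. The KU60019 15 d means of Trib3, Asns, Phgdh and Psat1 lay above those of both these other DMSO groups. The median log2 fold change of the 10 genes was 1.38, against -0.023 over all tested genes. In bulk RNA, a change in the number of cells of a type and a change in RNA per cell cannot be told apart.

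Among the transcription factors, Atf4 (ENSMUSG00000042406, chromosome 15, 80255184 to 80257541, plus strand, GRCm38 here and below) had 284, 392 and 279 CPM in DMSO 15 d and 463, 472 and 440 CPM in KU60019 15 d. The groups did not overlap, and Atf4 rose by a log2 fold change of 0.53 ± 0.17 (adjusted p = 0.0251), the smallest rise of the set. Ddit3, which encodes the pro-apoptotic factor CHOP (ENSMUSG00000025408, chromosome 10, 127290774 to 127296288, plus strand), had 38.7, 86.5 and 46.2 CPM with DMSO and 181, 184 and 156 CPM with KU60019. All treated libraries lay above all DMSO libraries, and it rose by 1.60 ± 0.29 on the log2 scale (adjusted p = 0.000233).

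Atf5 encodes a factor of the mitochondrial stress response (ENSMUSG00000038539, chromosome 7, 44812256 to 44816658, minus strand). It went from 236, 357 and 265 CPM to 505, 474 and 427 CPM, with no overlap and a log2 fold change of 0.71 ± 0.18 (adjusted p = 0.00554). Atf3, a stress-induced member of the ATF family (ENSMUSG00000026628, chromosome 1, 191170296 to 191218039, minus strand), had 1.89, 2.54 and 3.07 CPM with DMSO and 5.67, 5.56 and 7.66 CPM with KU60019. Its libraries did not overlap either, but the log2 fold change of 1.32 ± 0.58 did not pass (adjusted p = 0.0893). All 10 genes were free of overlap between the 3 treated and 3 DMSO libraries, as were 44.6% of all tested genes.

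Trib3, the pseudokinase that restrains ATF4 and CHOP (ENSMUSG00000032715, chromosome 2, 152337422 to 152344032, minus strand), stood at 19.3, 29.2 and 25.6 CPM with DMSO. With KU60019 it stood at 42.1, 42.0 and 42.8 CPM, all above the DMSO libraries, a log2 fold change of 0.78 ± 0.24 (adjusted p = 0.0181). Chac1 encodes an enzyme that degrades glutathione (ENSMUSG00000027313, chromosome 2, 119351229 to 119354381, plus strand). It went from 5.52, 6.24 and 8.61 CPM to 30.4, 21.8 and 21.5 CPM, a log2 fold change of 1.85 ± 0.39 (adjusted p = 0.00111). Asns, which encodes asparagine synthetase (ENSMUSG00000029752, chromosome 6, 7675169 to 7693254, minus strand), went from 54.6, 64.4 and 70.0 CPM to 150, 166 and 157 CPM, a log2 fold change of 1.32 ± 0.24 (adjusted p = 0.000242).

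The 3 serine and glycine genes all rose. Phgdh encodes the enzyme that opens serine synthesis from a glycolytic intermediate (ENSMUSG00000053398, chromosome 3, 98313170 to 98339990, minus strand). It had 22, 34.3 and 36.8 CPM with DMSO and 106, 131 and 132 CPM with KU60019, a log2 fold change of 1.99 ± 0.20 (adjusted p = 4.07e-07). Psat1, the aminotransferase of the next step (ENSMUSG00000024640, chromosome 19, 15904678 to 15947337, minus strand), went from 39.2, 39.2 and 71.7 CPM to 185, 181 and 198 CPM (log2 fold change 1.91 ± 0.36, adjusted p = 0.000441). Shmt2, the mitochondrial enzyme that makes glycine from serine (ENSMUSG00000025403, chromosome 10, 127517123 to 127522444, minus strand), went from 43.9, 55.6 and 59.4 CPM to 132, 149 and 148 CPM (1.43 ± 0.14, adjusted p = 2.66e-07). In each of them the 3 treated libraries lay close together and far above the DMSO libraries.

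Other genes of the response were counted on lists. Of 13 tRNA charging genes, 11 rose and 0 fell (median log2 fold change 0.87), led by the asparaginyl-tRNA synthetase gene Nars (158 ± 25.9 to 355 ± 18.4 CPM), Aars and Gars. Of 20 other ATF4 targets, 10 rose and 2 fell (median 0.46), among them the stress cytokine Gdf15, with 2.95 ± 0.337 CPM in DMSO 15 d and 16.2 ± 4.02 CPM in KU60019 15 d (log2 fold change 2.46 ± 0.32, adjusted p = 8.11e-06). Of 9 further serine and one-carbon genes, 3 rose and 1 fell. Psph, the phosphatase that completes serine synthesis, rose by 1.56 ± 0.32 and the mitochondrial folate enzyme gene Mthfd2 by 1.59 ± 0.24, while Aldh1l1, a cytosolic folate enzyme gene, fell by 1.26 ± 0.24 on the log2 scale. Of 11 amino acid transporter genes, 4 rose and 2 fell, the glutamine carriers Slc1a5 (-1.46 ± 0.18) and Slc38a2 (-1.15 ± 0.17) being the 2 that fell.

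The list of eIF2 kinases, eIF2B subunits and phosphatase regulators had 5 of 15 genes that rose and 0 that fell, with the largest of the named changes in Ppp1r15a, which encodes the stress-induced eIF2 phosphatase subunit GADD34 (45.9 ± 7.03 to 126 ± 12.1 CPM). Of 6 mitochondrial chaperone and protease genes, 4 rose, including Hspa9 (0.92 ± 0.14) and Lonp1 (0.64 ± 0.09), which is also on the list of other ATF4 targets. On the list of endoplasmic reticulum chaperones and the XBP1 and ATF6 arms, 0 of 16 genes rose and 5 fell, among them Hsp90b1 (1040 ± 43.3 to 733 ± 21.5 CPM), Pdia6 and Dnajc3.

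The Atf4 call was lost without S1_705 (adjusted p = 0.12) or S3_716 (0.112) of DMSO 15 d, without S4_705 (0.0594) or S5_715 (0.0755) of KU60019 15 d, with library size alone (0.0547), with only the compared groups (0.0739) and on TPM (log2 value 0.31, adjusted p = 0.279). That of Trib3 was lost without S1_705 (adjusted p = 0.108) and on TPM (0.142), and that of Atf5 on TPM (0.072), where the median of all genes lay at -0.18. Of 12 fibroblast markers 2 rose and 6 fell. Summed over the 12 the level was 35100 to 52100 CPM in DMSO 15 d and 12600 to 15100 CPM in KU60019 15 d, none at 0 in either group. Over 11 macrophage markers it was 33.3 to 68.3 and 24.5 to 35.9 CPM, with 1 at 0 throughout KU60019 15 d. Of 8 macrophage markers tested, 1 rose and 6 fell. Over 6 pericyte markers it was 85.3 to 109 and 52.8 to 56.2 CPM, with 1 at 0 in each group. Of 5 pericyte markers tested, 1 rose and 2 fell. Over 10 endothelial markers it was 36.6 to 110 and 11.1 to 15.8 CPM, none at 0 in either group. Over 9 epithelial markers it was 2.35 to 5.05 and 13.5 to 17.8 CPM, with 1 at 0 throughout KU60019 15 d. Krt19 alone made up most of the latter (1.70 ± 0.712 and 14.6 ± 2.02 CPM), and of 3 epithelial markers tested 1 rose. The part of these differences in the result was not tested.

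**Figure D2:**
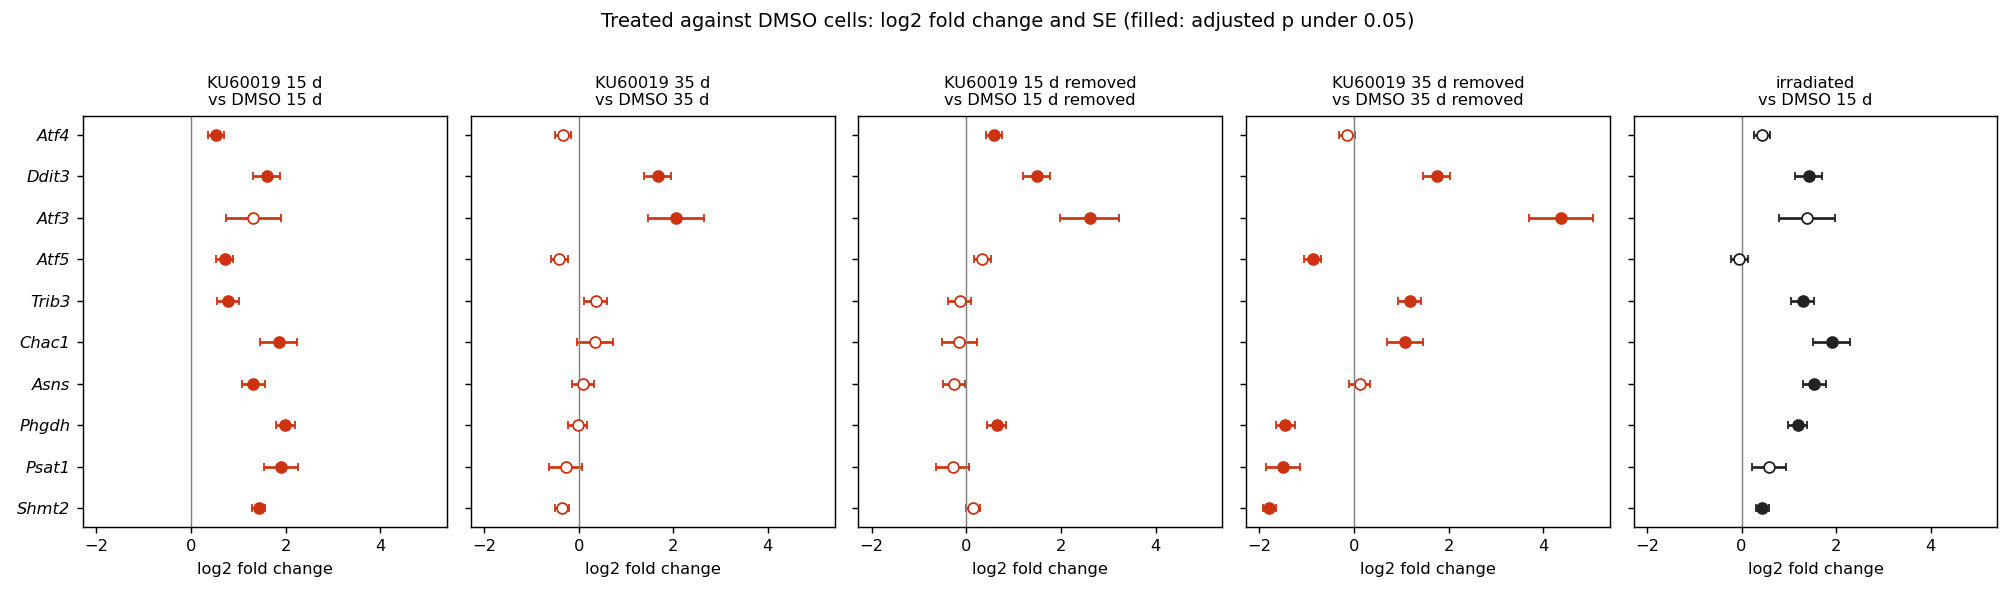
Log2 fold change (points) and SE (bars) of the 10 genes in the 5 comparisons of treated with DMSO cells, filled where the adjusted p is under 0.05. Ddit3 is filled in all 5 panels, and the 3 serine and glycine genes go from above 0 at 15 d of KU60019 to below 0 in the 35 d removed panel.

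After 35 d of KU60019 only Ddit3 and Atf3 of the 10 genes rose against DMSO 35 d and 0 fell, in a comparison in which 9.70% of all tested genes rose and 8.40% fell (18.1% in all). With 2 of 10 called, the share in either direction was near that over all genes. The libraries of 3 of the 10 genes did not overlap, against 44.4% of all tested genes. The median log2 fold change of the 10 genes was 0.03, against -0.007 over all tested genes. Ddit3 had 81.5, 46.0 and 46.3 CPM with DMSO and 124, 234 and 195 CPM with KU60019, without overlap, a log2 fold change of 1.67 ± 0.29 (adjusted p = 0.0003). Atf3 had 3.39, 1.29 and 3.49 CPM with DMSO and 7.14, 7.95 and 19.4 CPM with KU60019 (2.06 ± 0.59, adjusted p = 0.0172). S18_716 held the highest Atf3 level of the KU60019 35 d group by a wide margin.

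The amino acid genes did not pass. Asns had 92.1, 80.2 and 81.5 CPM with DMSO and 76.4, 99.8 and 93.7 CPM with KU60019 (adjusted p = 0.825). Phgdh had 41.3, 31.2 and 33.9 against 28.1, 44.6 and 32.2 CPM (adjusted p = 0.96), and Psat1 64.7, 63.3 and 57.7 against 43.8, 71.5 and 38.2 CPM (adjusted p = 0.63). Treated and DMSO libraries of all 3 genes overlapped. Shmt2 was lower in each KU60019 library, at 40.1, 56.1 and 49.6 against 61.3, 61.0 and 63.5 CPM, without passing (adjusted p = 0.0822), and the libraries of Atf4 overlapped, at 279, 306 and 364 against 474, 332 and 396 CPM (adjusted p = 0.178).

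The difference itself, the KU60019 effect at 35 d minus that at 15 d, was below 0 for 6 of the 10 genes and above 0 for none, where 4.58% of all tested genes passed below 0 and 7.11% above it (11.7% in all). It was -2.18 ± 0.51 on the log2 scale for Psat1 (adjusted p = 0.00619), -2.00 ± 0.28 for Phgdh (8.72e-05), -1.78 ± 0.20 for Shmt2 (9.51e-06) and -1.23 ± 0.33 for Asns (0.0168). It was -1.12 ± 0.26 for Atf5 (adjusted p = 0.00635) and -0.87 ± 0.24 for Atf4 (0.0229). For Ddit3 it was 0.07 ± 0.40 (adjusted p = 0.954), a difference whose SE still allows a change of either sign. For Chac1 it was -1.51 ± 0.54 and did not pass (adjusted p = 0.0723). Between the KU60019 groups directly, these 6 genes also fell from 15 to 35 d, where 11.6% of all genes fell and 13.6% rose (25.3% in all). The fall of Atf4 (-0.54 on the log2 scale) was lost without S4_705, S5_715, S6_716, S16_705 or S17_715 (adjusted p from 0.0502 to 0.12) and that of Asns (-0.81) without S16_705 (0.0723). Between the DMSO groups edgeR and DESeq2 each called 0 of the 10 genes, where edgeR called 0.455% of all genes higher and 1.11% lower. There Chac1, at 6.79 ± 1.61 and 14.7 ± 6.46 CPM, was the 1 gene with an unadjusted edgeR p under 0.05 (0.00853, adjusted p = 0.216). The libraries of 3 genes did not overlap, against 15.3% of all genes.

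On the lists, 0 of 13 tRNA charging genes changed at 35 d of KU60019, and 8 of them passed below 0 in the difference from 15 d, Tars by -1.36 on the log2 scale and Nars by -1.17. Of the transporter genes 0 of 11 rose and 5 fell, Slc38a2 from 422 ± 78.8 to 133 ± 3.84 CPM. Of the other ATF4 targets 4 of 20 rose and 1 fell, among them the stress protein gene Nupr1 (173 ± 35.1 to 699 ± 215 CPM) and Gdf15 (5.93 ± 0.735 to 18.1 ± 4.04 CPM). On the chaperone list of the XBP1 and ATF6 arms 0 of 16 rose and 5 fell.

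The Atf3 call at 35 d was lost without S14_715 of DMSO 35 d (adjusted p = 0.095), without S18_716 of KU60019 35 d (0.13) and with no filter on low counts (0.0572). On TPM, where the median gene lay at -0.32, 5 of the 10 genes passed instead of 2, with Atf4, Atf5 and Shmt2 below 0 (-0.69, -0.78 and -0.70 on the log2 scale). The differences of Atf4 and Asns from 15 d were lost without S1_705 (adjusted p = 0.0731 and 0.0541) or S16_705 (0.067 and 0.051), and that of Atf4 also without S3_716 (0.0603), S5_715 (0.0587) or S13_705 (0.0784). Mitochondrially encoded RNA made up 5.08% to 6.61% of counts in KU60019 35 d, 1.61% to 1.73% in DMSO 35 d and 2.58% to 2.86% in KU60019 15 d. The 12 fibroblast markers summed to 19700 to 21200 CPM in KU60019 35 d and 42900 to 52800 CPM in DMSO 35 d, none at 0, and 2 rose and 6 fell. The 11 macrophage markers summed to 57.2 to 78.5 CPM, none at 0, and to 18.6 to 29.9 CPM, with 3 at 0, and 2 of the 8 tested rose, Lyz2 (15.6 ± 5.28 to 50 ± 10.6 CPM) and Cd68. The 8 Schwann cell markers summed to 12.5 to 115 CPM in KU60019 35 d and 3.39 to 5.47 CPM in DMSO 35 d, none at 0, and 6 of the 7 tested rose. The part of these in the result was not tested.

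**Figure D3:**
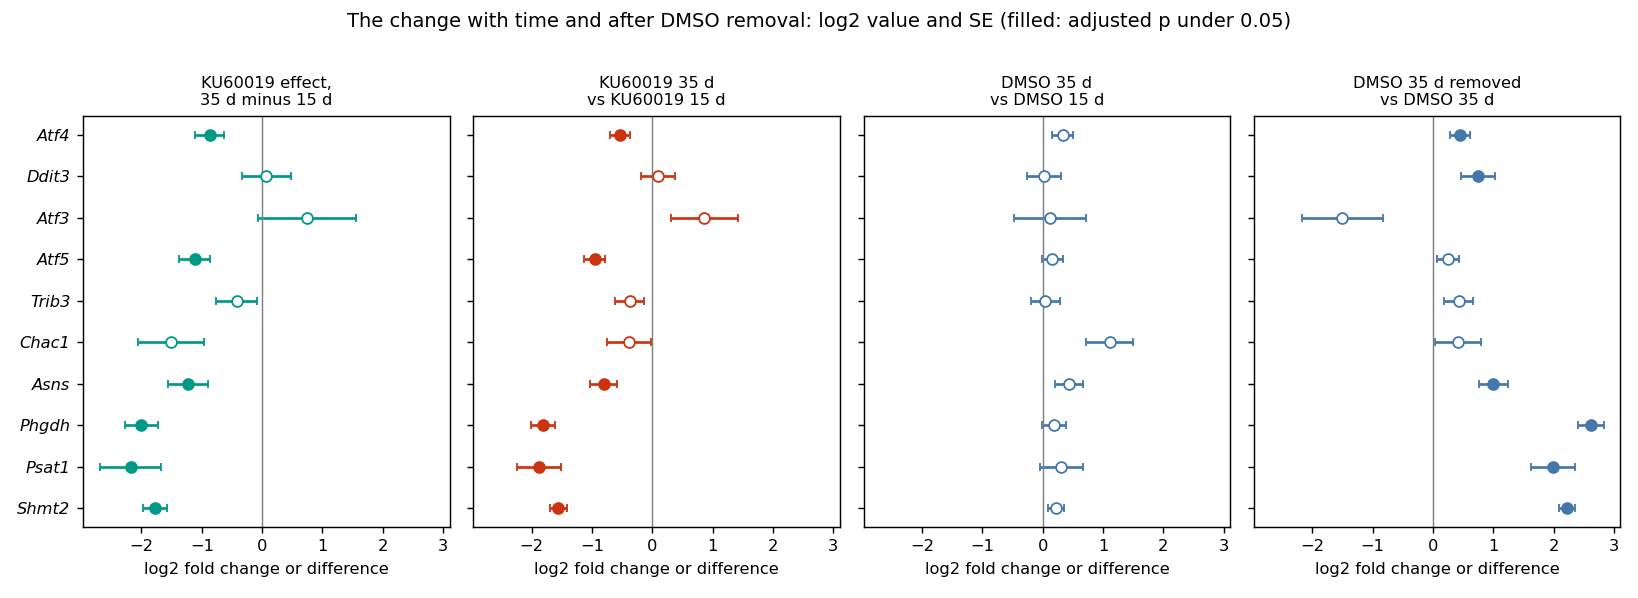
Log2 values (points) and SE (bars) of the 10 genes for the difference between the KU60019 effects at 35 and 15 d, for 35 against 15 d within KU60019 and within DMSO, and for DMSO 35 d removed against DMSO 35 d. Phgdh, Psat1 and Shmt2 are the farthest below 0 in the first panel and the farthest above 0 in the last.

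The groups harvested 20 d after removal of a 15 d treatment had higher levels of Ddit3, Atf3, Atf4 and Phgdh in formerly KU60019-treated than in formerly DMSO-treated cells. These 4 of the 10 genes rose and 0 fell, in a comparison in which 24.7% of all tested genes rose and 24% fell. The share called, 4 of 10, was no higher than the 48.7% over all genes, and 5 of 10 did not overlap between groups, against 56.8% of all genes. Ddit3 had 54.3, 53.0 and 52.6 CPM after DMSO and 133, 155 and 161 CPM after KU60019 (log2 fold change 1.49 ± 0.29, adjusted p = 0.000451). Atf3 had 1.1, 2.04 and 0.565 against 8.84, 4.23 and 9.52 CPM (2.61 ± 0.62, adjusted p = 0.00196). Both genes were free of overlap. Phgdh had 45.3, 48.5 and 49.0 against 84.7, 61.3 and 75.9 CPM (0.64 ± 0.20, adjusted p = 0.0108), and Atf4 390, 405 and 391 against 754, 539 and 480 CPM (0.58 ± 0.17, adjusted p = 0.00914).

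Library S10_705 of KU60019 15 d removed stood apart for several of these genes. Chac1 was at 45.1 CPM in it and at 12.5 and 9.80 CPM in the other 2 libraries, against 23.8, 27.7 and 23.7 CPM after DMSO. Asns was at 143 CPM in it and at 54.1 and 65.7 CPM in the others, against 99.5, 111 and 104 CPM after DMSO. Psat1 (124, 30.1 and 53.3 against 86.5, 82.2 and 85.1 CPM) and Trib3 (51.3, 24.9 and 26.6 against 33.6, 39.8 and 39.5 CPM) had the same shape. In each of these 4 genes S10_705 lay above all DMSO libraries and the other 2 lay below them.

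With all libraries, none of the 4 passed in edgeR's test on counts. The log2 fold changes were -0.15 ± 0.37 for Chac1 (adjusted p = 0.758) and -0.26 ± 0.23 for Asns (0.375). They were -0.29 ± 0.35 for Psat1 (0.521) and -0.14 ± 0.24 for Trib3 (0.662). Without S10_705 all 4 fell, Chac1 by 1.17 ± 0.28 (adjusted p = 0.00177), Psat1 by 1.02 ± 0.32 (0.0103), Asns by 0.81 ± 0.17 (0.000648) and Trib3 by 0.55 ± 0.22 (0.0414) on the log2 scale. Ddit3 (1.56 ± 0.31), Atf3 (2.47 ± 0.68) and Phgdh (0.52 ± 0.21) still rose, the Atf4 call was lost (0.36 ± 0.17, adjusted p = 0.0809), and 7 of the 10 genes were called in place of 4. On TPM with all libraries, where the median gene lay at -0.47, Atf4 was at -0.01 and Phgdh at 0.06. On TPM all 4 genes passed below 0 with S10_705 kept: Chac1 (adjusted p = 0.0378), Asns (0.0117), Psat1 (0.0376) and Trib3 (0.0213). Shmt2 also passed below 0 on TPM, at -0.42 (adjusted p = 0.0284), while Ddit3 and Atf3 passed above 0. With library size alone Atf4 did not pass (adjusted p = 0.0533).

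Set against the effect before removal, the effect of the 15 d treatment was smaller for 5 of the 10 genes and larger for none (11.4% of all tested genes passed below 0 and 25.4% in either direction). The change in effect was -2.20 ± 0.50 on the log2 scale for Psat1 (adjusted p = 0.00364), -2.00 ± 0.54 for Chac1 (0.0105), -1.58 ± 0.33 for Asns (0.00183), -1.35 ± 0.28 for Phgdh (0.00145) and -1.29 ± 0.19 for Shmt2 (8.22e-05). Ddit3 (adjusted p = 0.851) and Atf4 (0.887) did not pass. Within the KU60019 groups, Asns, Phgdh, Psat1 and Shmt2 fell after removal, where 19% of all genes fell and 21.3% rose (40.3% in all). With 4 of 10 called, the share in either direction was no higher there than over all genes. Psat1 went from 188 ± 9.03 to 69.3 ± 49.1 CPM and Shmt2 from 143 to 75.7 CPM, and the fall of Asns was lost without S11_715 (adjusted p = 0.0539). Between the DMSO groups Chac1 alone rose with the further 20 d, with 6.79 ± 1.61 CPM in DMSO 15 d and 25.1 ± 2.31 CPM after removal (log2 fold change 1.88 ± 0.39, adjusted p = 0.00368), in a comparison in which 3.78% of all genes rose and 3.24% fell (7.02% in all). The libraries of 6 of the 10 genes did not overlap there, against 28.5% of all genes. In the KU60019 arm Chac1 was at 24.6 ± 5.02 CPM before and 22.5 ± 19.6 CPM after removal.

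Of the lists after removal of the 15 d treatment, 3 of 13 tRNA charging genes rose and 1 fell, 0 of 11 transporter genes rose and 5 fell, and 3 of 20 other ATF4 targets rose and 6 fell. On the chaperone list of the XBP1 and ATF6 arms 5 of 16 rose and 4 fell, Creld2 from 58.4 ± 1.27 to 125 ± 3.56 CPM. The 12 fibroblast markers summed to 55600 to 63400 CPM after DMSO and 24100 to 31400 CPM after KU60019, none at 0, and 1 rose and 7 fell. The 8 Schwann cell markers summed to 3.84 to 6.12 CPM after DMSO and 8.52 to 71.4 CPM after KU60019, none at 0, and 5 of the 7 tested rose. The part of these in the result was not tested.

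After removal of the 35 d treatment the 10 genes split. Ddit3, Atf3, Trib3 and Chac1 rose in formerly KU60019-treated cells, and Atf5, Phgdh, Psat1 and Shmt2 fell. Over all tested genes 24.4% rose and 24.5% fell (48.9% in all). Ddit3 had 135, 84.5 and 70.4 CPM after DMSO and 273, 305 and 391 CPM after KU60019, its highest group mean (log2 fold change 1.75 ± 0.29, adjusted p = 3.32e-05). Atf3 had 0.908, 0.971 and 1.01 against 5.60, 43.9 and 11.1 CPM, a log2 fold change of 4.38 ± 0.68 (adjusted p = 1.65e-05). Its 3 KU60019 libraries were all above the DMSO libraries but differed widely among themselves, and without S23_715 the log2 fold change was 3.11 ± 0.55.

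Trib3 had 36.6, 32.5 and 33.6 CPM after DMSO and 63.7, 98.2 and 70.3 CPM after KU60019 (1.18 ± 0.24, adjusted p = 0.000375). Chac1 had 20.0, 16.9 and 21.8 against 36.4, 51.5 and 36.0 CPM (1.08 ± 0.38, adjusted p = 0.0228). Neither gene's groups overlapped, which held for 8 of the 10 genes and 49.6% of all tested genes. Asns was high in both groups, at 132, 171 and 206 CPM after DMSO and 171, 206 and 176 CPM after KU60019, with overlap (adjusted p = 0.69). Atf4 also overlapped, at 506, 552 and 578 against 395, 524 and 567 CPM (adjusted p = 0.529).

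The serine and glycine genes were lower after KU60019. Shmt2 had 346, 252 and 266 CPM after DMSO and 76.3, 93.1 and 80.2 CPM after KU60019 (log2 fold change -1.79 ± 0.14, adjusted p = 1.08e-09). Phgdh had 261, 207 and 188 against 70.5, 90 and 78.6 CPM (-1.45 ± 0.20, adjusted p = 2.89e-06) and Psat1 171, 242 and 324 against 74.0, 113 and 73.5 CPM (-1.50 ± 0.36, adjusted p = 0.00155). The gap between groups was wide in all 3. Atf5 had 365, 354 and 424 against 185, 243 and 197 CPM (-0.87 ± 0.18, adjusted p = 0.000486).

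Within DMSO, from 35 d to 20 d after removal, Phgdh rose by 2.62 ± 0.21 on the log2 scale, Shmt2 by 2.22 ± 0.14, Psat1 by 1.99 ± 0.37, Asns by 1.00 ± 0.24, Ddit3 by 0.74 ± 0.28 and Atf4 by 0.45 ± 0.17. These 6 of the 10 genes stand in a comparison in which 31.5% of all tested genes rose and 64.1% changed. The share called in either direction was thus no higher than over all genes. The libraries of 7 of the 10 did not overlap between groups, a share near the 62.8% of all genes. Within KU60019, over the same step, Atf4, Trib3, Chac1, Asns, Phgdh and Shmt2 rose and 0 fell, where 5.77% of all genes rose and 6.82% fell, Trib3 from 32.6 to 77.4 CPM and Asns from 90 to 185 CPM. Chac1 was called there at an adjusted p of 0.0496 and lost the call without any 1 of the 6 libraries (S16_705 to S18_716 and S22_705 to S24_716, adjusted p from 0.0844 to 0.134) and with the replicate number as a block (0.0561). The Chac1 call was lost also with no filter (adjusted p = 0.141), with the gene length trend removed (0.0514) and on TPM (0.0959). Atf4 lost its call without S16_705 (adjusted p = 0.118), S17_715 (0.0671) or S24_716 (0.111) and on TPM (0.0556), and Asns without S16_705 (0.0584). Atf4, Asns, Phgdh and Shmt2 rose in both arms. The change in the KU60019 effect on removal was -1.44 ± 0.20 for Shmt2 (adjusted p = 1.03e-05), -1.44 ± 0.28 for Phgdh (0.000501) and 2.32 ± 0.87 for Atf3 (0.0448), where 15.8% of all genes passed above 0 and 16.6% below it (32.4% in all). On TPM, where the median gene lay at 0.66, that of Phgdh was -0.58 and did not pass (adjusted p = 0.0977), and that of Shmt2 was -0.59 and did not pass without the filter (0.0677).

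In the DMSO 35 d removed group, S19_705 and S20_715 held 2.91% and 0.431% ribosomal RNA, and those of DMSO 35 d 0.0252% to 0.0622%. Without the libraries above 0.4%, the rises within DMSO were 2.38 ± 0.25 for Phgdh, 2.08 ± 0.17 for Shmt2, 2.36 ± 0.46 for Psat1 and 1.26 ± 0.31 for Asns on the log2 scale, all still called. Those of Ddit3 (0.26 ± 0.38, adjusted p = 0.632) and Atf4 (0.50 ± 0.26, 0.129) were lost. In the comparison of the removed groups, Shmt2 (-1.64 ± 0.17), Phgdh (-1.20 ± 0.25), Psat1 (-1.86 ± 0.46), Ddit3 (2.23 ± 0.45), Atf3 (4.35 ± 1.16) and Trib3 (1.24 ± 0.39) kept their calls without them and Chac1 lost its call (0.95 ± 0.60, adjusted p = 0.263).

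Chac1 lost that call also without S19_705 (adjusted p = 0.0501), S20_715 (0.0766) or S23_715 (0.088). The call on the change in the Atf3 effect was lost when S13_705, S15_716, S16_705, S17_715, S19_705, S20_715, S21_716 or S23_715 was left out (adjusted p from 0.0635 to 0.297), and its value was 1.04 without S23_715. Within DMSO, the Ddit3 rise was lost without S19_705 (adjusted p = 0.217), S14_715 (0.115) or S15_716 (0.112), and that of Atf4 without S20_715 (0.0646), S21_716 (0.075), S14_715 (0.144) or S15_716 (0.0651). Both were lost also with library size alone, with no filter and with only the compared groups. On TPM, where the median gene within DMSO lay at -0.67, Atf4 was at -0.38, Ddit3 at -0.11 and Asns at 0.14 on the log2 scale, none of them called, while Phgdh (1.75), Shmt2 (1.34) and Psat1 (1.08) still rose. The TPM median in the comparison of the removed groups was 0.32, and there Atf5 (adjusted p = 0.112) and Psat1 (0.0643) lost their calls. The 9 epithelial markers summed to 24.3 to 71.6 CPM in DMSO 35 d removed, with 2 at 0 throughout, and to 1.45 to 1.94 CPM in DMSO 35 d, with 1 at 0, and Krt19 alone was at 40.3 ± 23.7 and 1.43 ± 0.26 CPM. The 12 fibroblast markers summed to 15500 to 18900 and 42900 to 52800 CPM, none at 0. Within DMSO 3 of them rose and 9 fell, and between the removed groups 4 rose and 5 fell. The 11 macrophage markers summed to 11.7 to 13.1 CPM in DMSO 35 d removed, with 3 at 0, and to 68.1 to 98.7 CPM in KU60019 35 d removed, with 2 at 0. Of 7 Schwann cell markers tested 6 rose between these groups, with sums over 8 markers of 11.3 to 20.5 CPM (2 at 0) and 10.1 to 40.2 CPM (none at 0). The part of these in the result was not tested.

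In the comparison of the removed 35 d groups, 0 of 13 tRNA charging genes rose and 8 fell (median log2 fold change -0.39), and within DMSO 12 of them rose and 0 fell. Of the other ATF4 targets 10 of 20 rose and 1 fell, Gdf15 from 4.16 ± 1.81 to 75.4 ± 15.8 CPM (4.15 ± 0.34, adjusted p = 2e-09) and the proline synthesis gene Pycr1 from 20.6 ± 2.54 to 44.3 ± 4.86 CPM. On the chaperone list of the XBP1 and ATF6 arms 7 of 16 rose and 4 fell, led by Hspa5, which encodes the chaperone BiP (751 ± 175 to 1950 ± 578 CPM). Ppp1r15a rose from 63.1 ± 13.6 to 151 ± 52.7 CPM.

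**Figure D4:**
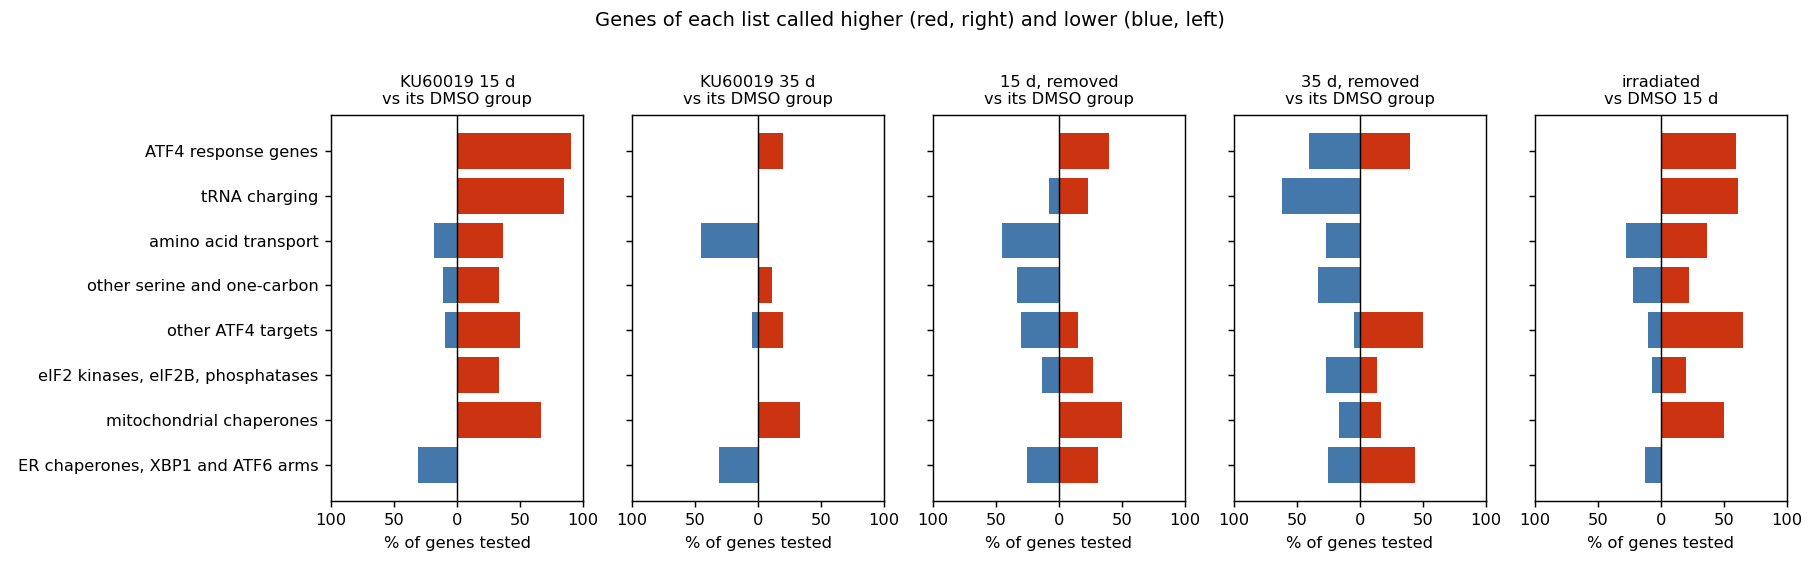
Percent of tested genes of each list that rose (red, right) or fell (blue, left) in the 5 comparisons of treated with DMSO cells. The 10 genes and the tRNA charging genes are nearly all red at 15 d of KU60019, and in the 35 d removed panel 8 of 13 tRNA charging genes are blue.

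At 10 d after irradiation, 6 of the 10 genes rose against DMSO 15 d and 0 fell. Over all tested genes 14.1% rose and 16.8% fell (30.9% in all), and 8 of the 10 genes did not overlap between groups, against 43.8% of all genes. The DMSO 15 d libraries are those used for KU60019 15 d, so the 2 comparisons are not independent. Chac1 rose most, from 5.52, 6.24 and 8.61 CPM to 23.2, 30.1 and 23.4 CPM (log2 fold change 1.91 ± 0.39, adjusted p = 0.000802). Asns went from 54.6, 64.4 and 70.0 CPM to 190, 193 and 166 CPM (1.54 ± 0.24, adjusted p = 5.06e-05). Ddit3 reached 166, 158 and 134 CPM (1.42 ± 0.29, adjusted p = 0.000653) and Trib3 56.6, 71.8 and 53.0 CPM (1.29 ± 0.24, adjusted p = 0.00037). None of these 4 overlapped with the DMSO libraries.

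Phgdh reached 76.8, 76.9 and 57.9 CPM (1.19 ± 0.20, adjusted p = 0.000107) and Shmt2 73.3, 75.4 and 66.9 CPM (0.44 ± 0.14, adjusted p = 0.0185), against 106 to 132 and 132 to 149 CPM in KU60019 15 d. Psat1 (83.3, 82.5 and 58.9 CPM, log2 fold change 0.58 ± 0.35, adjusted p = 0.225), Atf4 (423, 447 and 416 CPM, 0.43 ± 0.17, 0.0647) and Atf3 (4.29, 6.05 and 9.45 CPM, 1.38 ± 0.59, 0.0771) did not pass. Atf5, at 317, 273 and 240 CPM, overlapped with the DMSO libraries (adjusted p = 0.868). Whether the irradiated and KU60019 cells differed was not tested.

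Of the tRNA charging genes 8 of 13 rose and 0 fell after irradiation (median log2 fold change 0.51), Gars from 143 ± 14.2 to 272 ± 13.2 CPM. Of the other ATF4 targets 13 of 20 rose and 2 fell, Gdf15 to 65.6 ± 11.8 CPM (4.47 ± 0.34, adjusted p = 9.19e-09). Of the transporters 4 of 11 rose and 3 fell, and of the chaperone list of the XBP1 and ATF6 arms 0 of 16 rose and 2 fell.

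Against the mean of the 4 DMSO groups Shmt2 was lower, at -0.32 on the log2 scale (adjusted p = 0.0317), Phgdh did not pass (0.28, adjusted p = 0.171), and Atf3 did (1.95, 0.00121). Against DMSO 35 d neither Shmt2 (0.22, adjusted p = 0.251) nor Chac1 (0.80, 0.12) passed. Shmt2 was lost also without S1_705 (adjusted p = 0.125), S25_705 (0.0507) or S26_715 (0.0689), on TPM (0.264), with no filter (0.0536) and with only the compared groups (0.0587). Atf4 passed without S2_715 (0.61, adjusted p = 0.0116) and with DESeq2 (0.0363), as Atf3 did with DESeq2 (0.0422). The 12 fibroblast markers summed to 18800 to 24800 CPM after irradiation, none at 0, and 1 rose and 7 fell. Library S27_716 held 1.60% ribosomal RNA. The 10 endothelial markers summed to 15.7 to 19.5 CPM after irradiation and 36.6 to 110 CPM in DMSO 15 d, none at 0, and 9 of them fell. Their part was not tested.

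Across the 27 libraries, the 10 genes did not follow one pattern. Of the 45 pairs, 38 had a Pearson r of log2 CPM above 0, with a median of 0.46 and a range of -0.28 to 0.94. These are descriptions over libraries that share treatments. The highest values joined the serine and glycine genes, Phgdh with Shmt2 (0.94), Psat1 with Shmt2 (0.86) and Phgdh with Psat1 (0.84). A second cluster held Trib3 with Chac1 (0.82), Trib3 with Asns (0.82) and Chac1 with Asns (0.78), and Ddit3 ran with Atf3 (0.74). Asns also ran with Psat1 (0.73) and Phgdh (0.7), so the clusters were not separate. Atf3 with Shmt2 and Atf3 with Atf5 were the lowest, both at -0.28. Measured as deviations from group means, Asns with Psat1 had the highest r (0.88), and 41 of the 45 pairs were above 0. On that measure Ddit3 with Atf3 was at 0.09, Psat1 with Shmt2 at 0.25 and Phgdh with Psat1 at 0.49. Phgdh with Shmt2 was at 0.79, Trib3 with Asns at 0.74, Trib3 with Chac1 at 0.71 and Chac1 with Asns at 0.7.

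Genes outside the set whose level over the 27 libraries was most like the mean standardised level of the 10 genes were Gars (r = 0.92), Tnfrsf12a, Eif2s2 and Psmd8 (each 0.91), Yars (0.88) and Rhoc (0.87). Gars and Yars encode tRNA synthetases, and Eif2s2 encodes the beta subunit of eIF2. Gars ranged from 129 to 364 CPM, Eif2s2 from 77.0 to 173 CPM and Tnfrsf12a, the receptor of the cytokine TWEAK, from 39.0 to 397 CPM.

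Exons of 3 of the 10 genes overlap those of neighbours, so their values are uncertain where counting could share or drop reads. Ddit3 shares 68 bases with Mars and 13 with Gm4189 on the opposite strand, and 105 bases on its own strand with a second gene of the same symbol (ENSMUSG00000116429), not analysed here. Atf5 shares 82 bases with each of Nup62 and Il4i1, and Shmt2 shares 32 bases with Ndufa4l2.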

How the data were processed

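RNA of the fibroblasts was prepared with a TruSeq kit, per the labels' protocols. The authors deposited raw read counts per gene, which per the submitters' processing notes came from featureCounts and the mm10 build, and TPM values of the same libraries. Aligner, tool versions, annotation release and strand setting: not given in the sources used here. Of the gene IDs, 48058 (99.2%) matched GENCODE M21, which gave symbols and positions. Groups came from the sample titles, and 0 columns were left unused.

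Counts were tested with edgeR 4.0.16 (R 4.3.3; filterByExpr at a minimum count of 10, TMM, robust quasi-likelihood F-test) in 1 model of all 27 libraries with 14 contrasts. The threshold was a Benjamini-Hochberg adjusted p of 0.05 over 18684 genes, and adjusted p-values in the text are edgeR's unless TPM is named. The SE, an approximation, is the absolute log2 fold change over the square root of F. Alternatives were DESeq2 1.42.0, other scalings, no filter, only the compared groups, limma 3.58.1 on log2(TPM + 1) and log2(TPM + 0.1), a gene length trend removed, the replicate number as a block and each library left out. The fit without the 4 libraries above 0.4% ribosomal RNA was added after seeing the data. Methods were tested on simulated data.

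The 10 genes and all lists were chosen with earlier results of these data known. Lists are given by counts and at most the 3 called genes of lowest p, and the most alike genes are the 6 with the highest r among named genes of at least 5 CPM on average. Same-numbered libraries deviated together between KU60019 15 d and DMSO 15 d (r of 0.39, 0.22 and 0.38), which met the rule for pairing. Between KU60019 35 d removed and KU60019 35 d all r were above 0 but lower (0.13, 0.08 and 0.2). Between KU60019 35 d and DMSO 35 d all were below 0 (-0.28, -0.01 and -0.28), and in the other comparisons not every pair was above 0. The labels do not say what the numbers mean. All replicate pairs differed beyond sampling noise (chi-square per gene at least 7.21). Promoter windows are from RefSeq (GRCm38.p6).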

Additional observations from a re-analysis of the deposited data

Results flagged for a closer look

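The KU60019 effect differed between treatment times, by a test of the difference itself, for 6 of the 10 genes, against 11.7% of all tested genes. At 35 d minus 15 d the log2 value was -2.18 for Psat1, -2.00 for Phgdh and -1.78 for Shmt2. It was -1.23 for Asns, -1.12 for Atf5 and -0.87 for Atf4. The calls of Asns and Atf4 were lost with some single libraries left out. The KU60019 effect differed between cells before and after removal of the 15 d treatment for 5 of the 10 genes, against 25.4% of all tested genes. The change was -2.20 for Psat1, -2.00 for Chac1, -1.58 for Asns, -1.35 for Phgdh and -1.29 for Shmt2. For the 35 d treatment the effect differed for 3 of the 10 genes, a share no higher than the 32.4% over all tested genes. The change was 2.32 for Atf3 and -1.44 for both Phgdh and Shmt2. On TPM the value for Phgdh was -0.58, not called, and that for Shmt2 was -0.59, not called without the filter. The Atf3 call was lost on TPM with the pseudocount of 1 (adjusted p = 0.0602), with no filter (0.114) and with only the compared groups (0.101). It was lost also with most single libraries left out, and its value was 1.04 without S23_715. The groups hold 3 libraries each, too few for a test of single outlying libraries.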

How the results depend on the processing

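Changes were tallied for 76 results of single genes, the 66 called and 10 of those not called. Other results not called are outside the tally, such as those of Atf4, Atf5 and Shmt2 that passed at KU60019 35 d on TPM. Of the 930 gene results under alternatives other than left-out libraries, 826 kept their direction and their side of the threshold. A further 71 lost the threshold, 18 gained it and 15 reversed. Of the 552 with a library left out, 485 kept both, 53 lost the threshold, 5 gained it and 9 reversed. On TPM with either pseudocount, and with the pseudocount of 1 and no filter, Atf4 was at -0.01 in KU60019 15 d removed against DMSO 15 d removed, and in DMSO 35 d removed against DMSO 35 d Atf4 was at -0.38 and Ddit3 at -0.11. The 35 d minus 15 d difference of Ddit3 was -0.13 and, with the pseudocount of 0.1, -0.14 on TPM, -0.07 with the length trend removed and between -0.36 and 0.41 with a library left out. Against the mean of the DMSO groups, irradiation gave -0.32 for Shmt2 and -0.26 for Psat1. Without 1 library, the 15 d removed comparison gave -1.17 to 0.20 for Chac1, -0.55 to 0.05 for Trib3 and -1.02 to 0.07 for Psat1.

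The number of the 10 genes called moved as follows, and the cause was not tested. For KU60019 35 d it was 1 with no filter, 5 on TPM with either pseudocount and 4 on TPM without a filter. It was 5 with the length trend removed and 1 to 3 with a library left out. Over all genes, 660 of 16350 rose there and 4267 fell on TPM with the pseudocount of 1. With the length trend removed, 1522 of 18623 rose and 1870 fell. For KU60019 15 d removed against DMSO it was 7 on TPM with either pseudocount and 4 to 7 with a library left out. On TPM with the pseudocount of 1, 1616 of all 16350 genes rose there and 8360 fell. For the change of effect on removal at 35 d it was 5 and 6 on TPM with the pseudocounts of 1 and 0.1. With the pseudocount of 1, 7723 of all 16350 genes passed above 0 and 808 below it. For DMSO 15 d removed against DMSO 15 d it was 3 by DESeq2 and 2 with only the compared groups. It was 2 with the length trend removed and 1 to 2 with a library left out. DESeq2 called 893 of all 18684 genes higher there and 872 lower. For DMSO 35 d removed against DMSO 35 d it was 3 on TPM without a filter, where 2440 of all 33886 genes rose and 10597 fell. For KU60019 15 d removed against KU60019 15 d it was 2 with only the compared groups and 7 on TPM with either pseudocount. With the pseudocount of 1, 1659 of all 16350 genes rose there and 5169 fell. For KU60019 35 d removed against KU60019 35 d it was 3 to 5 with a library left out. With the replicate number as a block, 9 genes were called for KU60019 15 d, and the Chac1 call named in the report was the only one lost (5 genes in place of 6). Depth limits Atf3 most, at 13 to 26 counts in the DMSO 35 d removed libraries.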
